A study of Homo sapiens with 3 samples.

Results

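The genes described here are LIN28A and LIN28B, which block the maturation of the microRNA let-7, and a set of well known let-7 targets that includes the IGF2BP family of mRNA binding proteins. The 10 genes, LIN28A, LIN28B, HMGA2, IGF2BP1, IGF2BP2, IGF2BP3, ARID3B, TRIM71, IGF1R and E2F5, were taken by gene symbol, as a readout of microRNA repression, and had 12 of the 47323 probes on each array. Of these 10 genes, 7 gave a signal above background (1 or more arrays with a detection p under 0.01), against 11768 of 20046 named genes in all. Expression was measured in 293T cells, an established human line that descends from the embryonic kidney line HEK293 and expresses SV40 large T antigen. The knockdown group comprised 2 arrays, 1 from cells given the siRNA labelled siTARBP2-1 (siRNA 1 here) and 1 from cells given siTARBP2-2 (siRNA 2). The control was 1 array, which the sample labels call siControl and the series design calls mock-transfected. All cells were transfected with a lipid reagent, grew in the same serum-containing medium and gave total RNA 48 h later. Nothing in the labels tells whether the cells came from separate cultures.

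let-7 binds partly complementary sites in the 3′ untranslated region of its targets, mainly through its seed, and lowers the stability and translation of those mRNAs. Its precursors are cut by DICER1, which works with the double-stranded RNA binding protein TARBP2, and LIN28A and LIN28B bind the let-7 precursor and hold back this maturation. LIN28A and LIN28B are themselves let-7 targets, so the proteins and the microRNA restrain each other, and cells with much LIN28 tend to have little mature let-7.

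The mature strands below are printed because the genes described here were picked as targets of this one seed. In each, taken from RefSeq (GRCh38.p14), the capitals mark the seed, bases 2 to 8.
hsa-let-7a-5p: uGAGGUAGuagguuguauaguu
hsa-let-7b-5p: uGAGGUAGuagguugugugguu
hsa-let-7c-5p: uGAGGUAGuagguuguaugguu
hsa-let-7d-5p: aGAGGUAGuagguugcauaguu
hsa-let-7e-5p: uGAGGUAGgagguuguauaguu
hsa-let-7f-5p: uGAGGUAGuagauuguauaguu
hsa-let-7g-5p: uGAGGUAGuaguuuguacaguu
hsa-let-7i-5p: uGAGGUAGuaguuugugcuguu
hsa-miR-98-5p: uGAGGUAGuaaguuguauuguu
These 9 strands come from 12 loci and share the same 7-base seed. Outside it, they differ from let-7a at 1 to 4 bases of 22, and let-7i differs at the most. Mature let-7 was not measured here. Of the 12 loci, 10 had a probe on the array, and 9 of these probes were not above background on any array. The exception was MIRLET7D, whose probe was above background on the siRNA 2 array alone, with normalized signals (log2) of 5.24 with siRNA 1, 5.50 with siRNA 2 and 5.22 in the control. Its detection p-values were 0.0104, 0.0039 and 0.0195 in the same order, so siRNA 1 and control missed the limit of 0.01 narrowly.

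Normalized signals are given on the log2 scale, after background correction and quantile normalization, and a difference is a knockdown signal minus the control signal. TARBP2, the targeted gene, had signals of 6.27 with siRNA 1, 6.09 with siRNA 2 and 8.38 in the control, so both knockdown arrays lay below the control as their labels say. Its mean difference was -2.21 ± 0.25 (SE as moderated by limma, n = 2 against 1; limma adjusted p = 0.328). A second TARBP2 probe, also above background on all arrays, lay at -1.63 with siRNA 1 and -1.85 with siRNA 2. The size depends on how background is treated, and without background correction the mean difference was -1.71. In the authors' deposited table the log fold changes of TARBP2 were -1.16 and -0.78. Raw signal averaged 680.4 over all probes with siRNA 1, 514.3 with siRNA 2 and 528.5 in the control. In the same order, 19155, 18449 and 18968 probes were above background. Of the 8 marker genes of 293T cells with a probe, 7 were above background, PAX2 being the exception, and of 9 markers of other cell types, 2 were, COL1A1 on all 3 arrays and ALB on the control array alone. With 3 arrays in all, precision is limited throughout by their number.

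Of the 10 genes, the 7 above background were tested, and none passed the test used across all genes. LIN28A, HMGA2 and TRIM71 were not tested. In limma, 0 of 11768 genes passed an adjusted p of 0.05 (0%), and TARBP2 itself did not, so the 0 of 7 members says nothing particular to them and does not show that their levels stayed the same. At an unadjusted p under 0.05 there were 204 genes (1.73%), and 0 members. With each siRNA set alone against the control there is 1 array a side and no test, and a gene was counted when it lay more than 1.5-fold (0.585 on the log2 scale) away. By that rule 0 of the 7 members were counted with siRNA 1, where 2.62% of all genes were, and 0 with siRNA 2, where 10.1% were. With a lower limit, 0.322 on the log2 scale, 2 members were counted with siRNA 1 (15.8% of all genes) and 3 with siRNA 2 (30.7%). The median of the members' mean differences was 0.09, beside 0.01 over all genes tested. Of the 7 members, 3 lay above the control with both siRNAs (31.9% of all genes did), 2 lay below it with both (27.2%) and 2 lay on opposite sides (40.5%). Both siRNA differences use the same control array, so they are not independent. In such bulk RNA, fewer cells expressing a gene and less of its RNA per cell cannot be told apart.

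**Figure D1:**
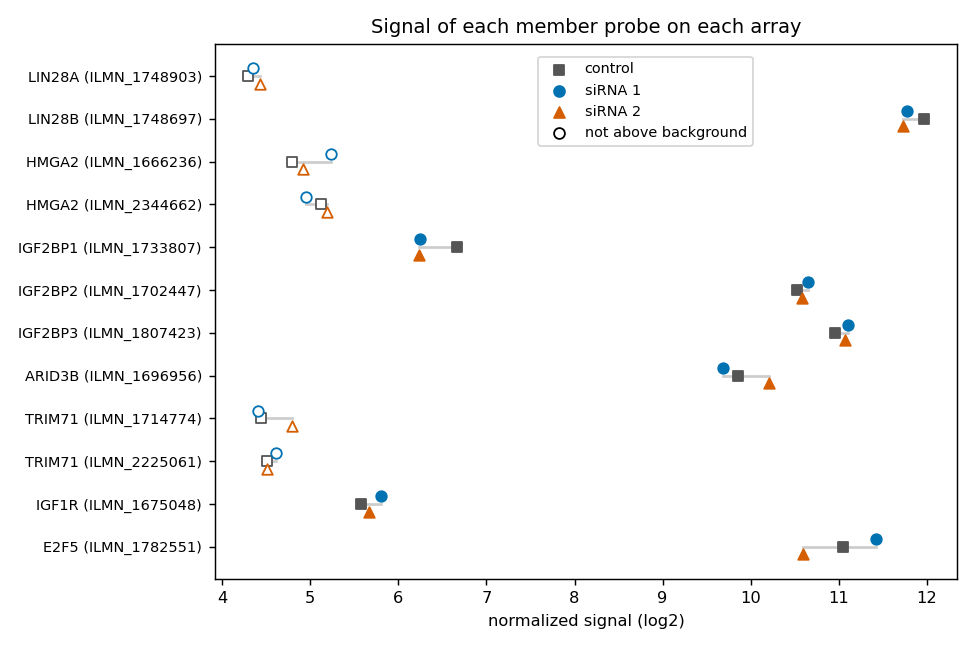
Normalized signal (log2, horizontal axis) of each of the 12 member probes on the control, siRNA 1 and siRNA 2 arrays, with open symbols where the probe was not above background. The 7 probes with filled symbols were above background on all 3 arrays, and the 5 probes of LIN28A, HMGA2 and TRIM71 on none; signals of different probes cannot be compared with each other.

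The LIN28 paralogs differed in whether they were seen at all. LIN28A (probe ILMN_1748903), the paralog of pluripotent and early embryonic cells, had signals of 4.35, 4.43 and 4.30 with siRNA 1, siRNA 2 and control. Its detection p-values of 0.879, 0.651 and 0.978 in the same order leave it at background on every array, so no fold is given. The pluripotency factors POU5F1 and NANOG were not above background on any array either. LIN28B (ILMN_1748697), the paralog found in many tumour and fetal cells, had signals of 11.78 with siRNA 1, 11.73 with siRNA 2 and 11.96 in the control. Both knockdown arrays lay slightly below the control, by -0.18 and -0.23, and were only 0.05 apart, although siRNA 1 was at 0.13 when array medians were set equal. The mean difference was -0.21 ± 0.25 (SE, n = 2 against 1), with a 95% confidence interval from -0.78 to 0.37 (limma adjusted p = 0.99991). In the authors' deposited table the log fold change of LIN28B was -0.20.

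The IGF2BP family stabilizes and localizes its bound mRNAs in the cytoplasm, IGF2, MYC and ACTB among them, and its members did not all lie on the same side of the control under the scaling used here. IGF2BP1 (ILMN_1733807), the paralog best known for binding the MYC and ACTB transcripts, had signals of 6.25 with siRNA 1, 6.24 with siRNA 2 and 6.66 in the control. The knockdown arrays nearly coincided, 0.01 apart, and both lay below the control, by -0.41 and -0.42. The mean difference of -0.42 ± 0.25 (SE, n = 2 against 1), 1.34-fold lower, was the largest in size among the 7 members measured, with a 95% confidence interval from -0.99 to 0.15 (limma adjusted p = 0.99991). It ranked 1066th in size among the 11768 genes tested. IGF2BP1 was the only member beyond that lower limit on the same side with both siRNAs, and 2.63% of all genes were that far below the control with both. Its raw signals were 137.1, 108.2 and 134.9 with siRNA 1, siRNA 2 and control, near background, and the size depends on how background is treated. It was -0.28 without background correction and -0.27 with the authors' deposited signals. The log fold change in the authors' deposited table was -0.16.

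IGF2BP2 and IGF2BP3, both far above background, lay on the other side of the control, except with siRNA 2 when array medians were set equal. IGF2BP2 (ILMN_1702447), also known as a diabetes susceptibility gene, had signals of 10.65 with siRNA 1, 10.58 with siRNA 2 and 10.53 in the control. IGF2BP3 (ILMN_1807423), an oncofetal paralog, had signals of 11.10, 11.06 and 10.96 in the same order. In both genes the control was the lowest of the arrays, by small margins. The mean differences were 0.09 ± 0.25 for IGF2BP2 and 0.13 ± 0.25 for IGF2BP3 (SE, n = 2 against 1; limma adjusted p = 0.99991 for each). Their 95% confidence intervals ran from -0.49 to 0.66 and from -0.45 to 0.70. The intervals of all 3 paralogs overlap, and the difference between IGF2BP1 and the others was not tested.

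Of the growth and chromatin genes that let-7 is known to repress, 3 could be measured and 2 could not. IGF1R (ILMN_1675048), the receptor for IGF1 and IGF2, had signals of 5.80 with siRNA 1, 5.66 with siRNA 2 and 5.58 in the control. Both knockdown arrays lay above the control, by 0.23 and 0.09. The mean difference was 0.16 ± 0.25 (SE, n = 2 against 1; limma adjusted p = 0.99991). This probe too lay close to background, with raw signals of 110.9, 87.4 and 86.7 in the same order, and with the authors' deposited signals the mean difference was 0.07. HMGA2, the chromatin protein whose mRNA is a textbook let-7 target with several sites, was not above background at either probe. ILMN_1666236 had signals of 5.23, 4.92 and 4.79 with siRNA 1, siRNA 2 and control, with detection p-values of 0.0117, 0.0701 and 0.119. ILMN_2344662 had 4.96, 5.19 and 5.13, with 0.0403, 0.0221 and 0.0247. The probes ordered the arrays differently, siRNA 1 being highest at the first and lowest at the second. With a detection p under 0.05 as the limit, HMGA2 would enter as an eighth member with a mean difference of -0.05, taken from ILMN_2344662. TRIM71, the LIN41 protein of the TRIM-NHL family, whose worm counterpart lin-41 is a founding let-7 target, was not above background at either of its 2 probes. Its signals ran from 4.40 to 4.79 at ILMN_1714774 and from 4.51 to 4.61 at ILMN_2225061.

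ARID3B and E2F5 lay on opposite sides of the control with the 2 siRNAs, ARID3B not so when array medians were set equal. ARID3B (ILMN_1696956), an AT-rich DNA binding protein, had signals of 9.68 with siRNA 1, 10.21 with siRNA 2 and 9.86 in the control. The control lay between the knockdown arrays, which differed from it by -0.18 and 0.35, with a mean of 0.09 ± 0.30 (SE, n = 2 against 1). E2F5 (ILMN_1782551), an E2F factor that mainly represses and pairs with the pocket proteins RBL1 and RBL2, had signals of 11.43 with siRNA 1, 10.59 with siRNA 2 and 11.04 in the control. Again the control lay between them, 0.39 below siRNA 1 and 0.45 above siRNA 2. The mean difference of -0.03 ± 0.36 (SE, n = 2 against 1) therefore hides the widest spread among the 7 measured members. The siRNA 1 array exceeded the siRNA 2 array in E2F5 by 1.78-fold, the only member past 1.5-fold in that comparison, in which 10.1% of all genes were. This compares 1 array with 1 array and has no replicate check. For ARID3B and E2F5 alike the limma adjusted p was 0.99991.

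**Figure D2:**
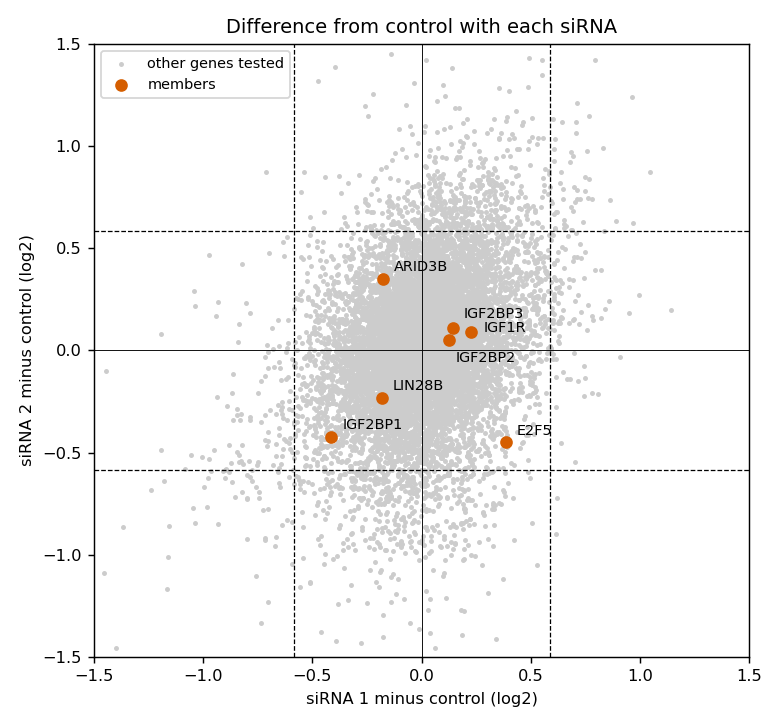
Difference from the control (log2) with siRNA 1 (horizontal) and siRNA 2 (vertical) for the 11768 genes tested, with the 7 members above background in orange, dashed lines at 1.5-fold, and 21 genes outside the plotted range. All 7 members lie inside the dashed lines, with IGF2BP1 and LIN28B below the control on both axes and ARID3B and E2F5 on opposite sides; equal array medians turn the siRNA 1 sign of LIN28B and ARID3B.

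The signs were checked against the scaling of the arrays. With array medians set equal in place of quantile normalization, all genes together shifted by a median of 0.31 on the siRNA 1 array and -0.06 on the siRNA 2 array. Under it LIN28B and ARID3B were at 0.13 and 0.17 with siRNA 1, IGF2BP2 and IGF2BP3 were at -0.048 and -0.0024 with siRNA 2, and E2F5 was past 1.5-fold with siRNA 1 at 0.71. Relative to the shift of all genes, each of the 7 members kept its sign with both siRNAs, and E2F5 was at 0.40 with siRNA 1 and -0.49 with siRNA 2. IGF2BP1 was below the control with both siRNAs under every scaling tried, at -0.17 and -0.49 before the shift is taken off. In the authors' deposited table, 2.61% of 39747 accessions carry the class for up-regulated, and 0 of the 11 accessions of the 10 members do. Their log fold changes there ran from -0.20 for LIN28B to 0.13 for IGF2BP3.

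**Figure D3:**
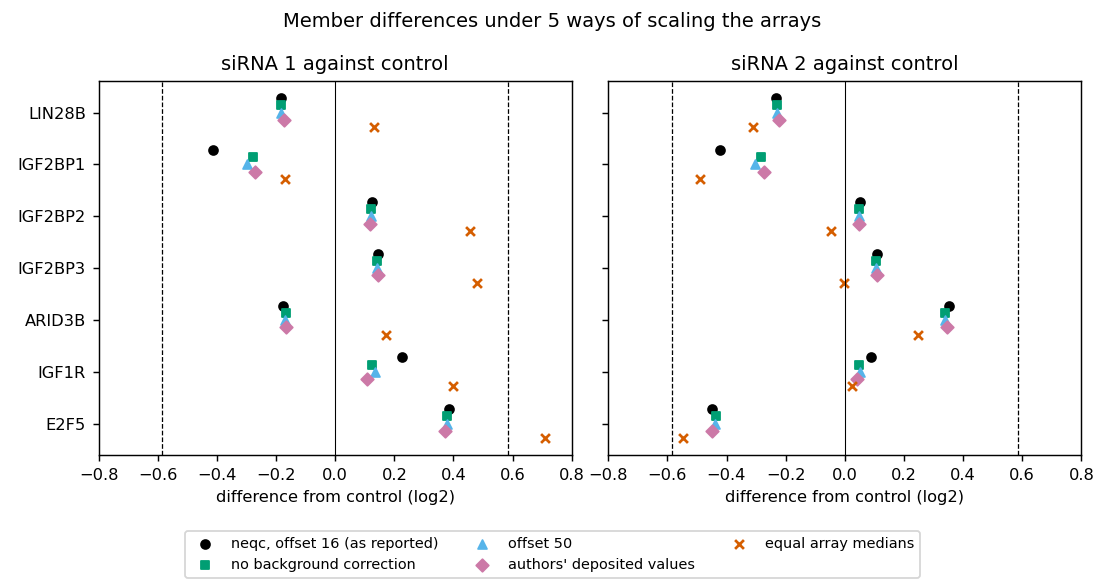
Difference from the control (log2) of the 7 members above background with siRNA 1 (left) and siRNA 2 (right), under 5 ways of correcting and scaling the signals, with dashed lines at 1.5-fold. Equal array medians move all members right with siRNA 1, and the near-background IGF2BP1 and IGF1R probes are smaller in size without background correction.

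Other let-7 targets were set beside the members from a list of 66 genes, of which 60 had a probe and 53 were above background. In limma, the adjusted p of each of the 53 was 0.99991. Of the 53, 16 lay above the control with both siRNAs, 16 below it with both and 21 on opposite sides. Over all genes these shares were 31.9%, 27.2% and 40.5%. The median was -0.01, beside 0.01 over all genes. Taken alone, siRNA 1 gave a median of 0.04 and siRNA 2 one of -0.05. HMGA1, the paralog of HMGA2, had signals of 12.43 with siRNA 1, 12.17 with siRNA 2 and 11.83 in the control. Its knockdown arrays were both above the control, by 0.61 and 0.35, and its other probe above background gave a mean of 0.27. CCND2, cyclin D2, was on the other side, with 11.47, 11.73 and 12.17, a mean of -0.57 ± 0.26 (SE), and -0.69 at its other probe. RRM2, a subunit of ribonucleotide reductase, had 10.07, 10.22 and 10.67, a mean of -0.53. CCNJ, cyclin J, had 8.83, 7.67 and 9.10, so that most of its mean of -0.85 ± 0.44 came from the siRNA 2 array.

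More than 1.5-fold from the control were, with siRNA 1, 2 list genes above (MYC and HMGA1) and 3 below (E2F6, CCND2 and RRM2), where 1.26% and 1.36% of all genes were. With siRNA 2 there were 1 above (IGDCC3) and 1 below (CCNJ), where 5.27% and 4.88% of all genes were. Of these, E2F6 and IGDCC3 were named after their values were seen, and E2F6 lay at -0.79 with siRNA 1 but at 0.18 with siRNA 2. No gene of the list was past 1.5-fold with both siRNAs. These counts rest on the brightest probe of each gene. With siRNA 1, the other MYC and HMGA1 probes above background were at 0.35 and 0.28, short of 1.5-fold. The other CCND2 probe was past it at -0.87.

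**Figure D4:**
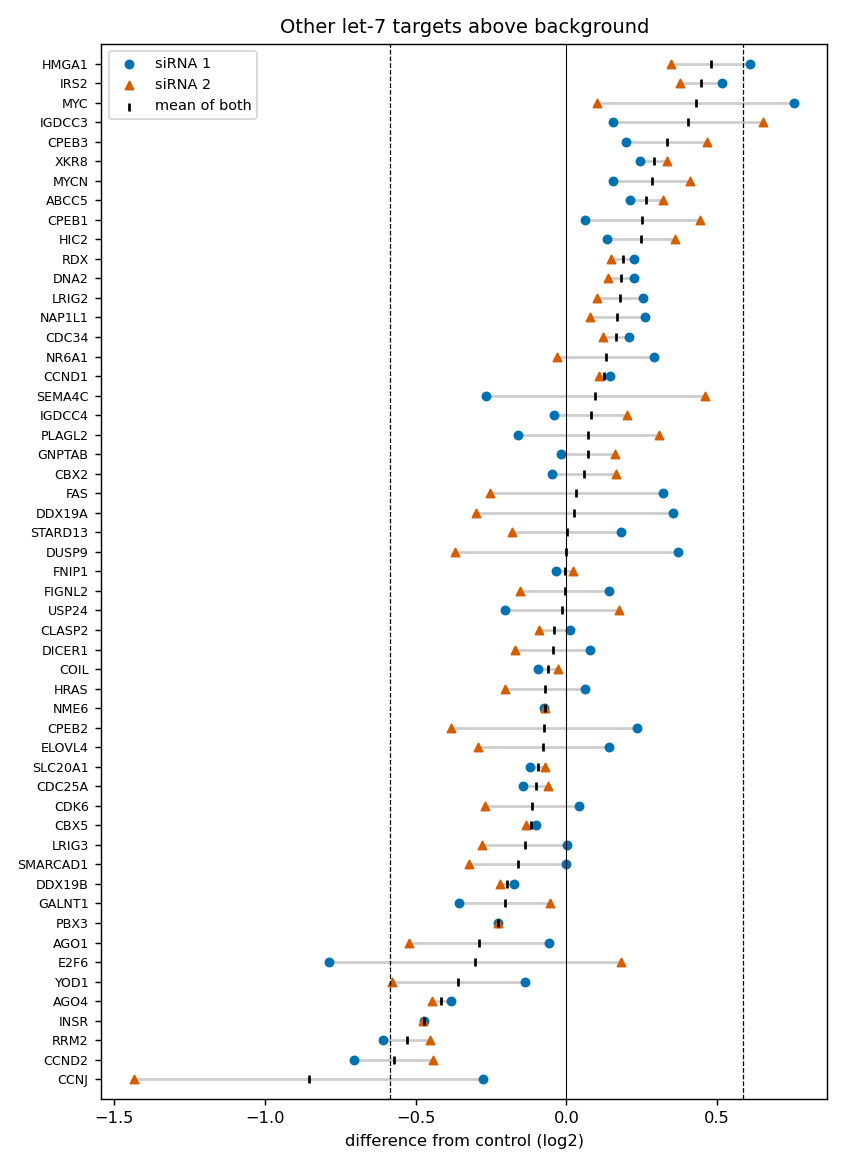
Difference from the control (log2) with siRNA 1 (circles) and siRNA 2 (triangles) and their mean (ticks) for the 53 other let-7 targets above background, ordered by the mean, with dashed lines at 1.5-fold. The list runs from CCNJ at -0.85 to HMGA1 at 0.48, with 16 genes wholly on each side of the control; INSR and AGO4 were not above background on the knockdown arrays.

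Of 19 factors of let-7 processing, silencing and control, 18 were above background, with a median of -0.08, beside 0.01 over all genes. Above the control with both siRNAs were 3 and below it 8, where 31.9% and 27.2% of all genes were. TNRC6B, a silencing partner of Argonaute, had signals of 7.41 with siRNA 1, 7.03 with siRNA 2 and 7.71 in the control. DDX17, a helicase of microRNA processing, had 7.57, 8.16 and 8.31, and AGO1, an Argonaute, had 9.33, 8.87 and 9.39. AGO4 was not above background on the knockdown arrays and was at least 1.16-fold lower there. In limma, the adjusted p of each was 0.99991. Of 22 let-7 loci, neighbouring microRNA genes and host transcripts, 19 had a probe and 5 were above background. Apart from MIRLET7D, these were MIR125B2 at a mean of 0.04, MIR99AHG at 0.08, HUWE1 at -0.02 and WDR82 at -0.01, with the MIR99AHG arrays apart at -0.27 and 0.44.

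Genes of the IGF system beside IGF1R, IGF binding proteins among them, spread to both sides of the control, with a median of 0.12. Of the 12 above background, 5 were higher with both siRNAs and 4 lower (31.9% and 27.2% of all genes). IGFBP2, IGFBP3 and IGFBP4 were among the higher, IGFBP3 above background with siRNA 2 alone, and IGFBP5 and IGFBP6 among the lower. IGFBP5 was at only -0.0049 with siRNA 1, and IGFBP6 was not above background on the siRNA 2 array. The docking proteins IRS2 and IRS1 lay above the control. IRS2 had signals of 7.95, 7.81 and 7.44 with siRNA 1, siRNA 2 and control, and IRS1 had 6.97, 7.17 and 6.68. IGFBP2, an IGF binding protein, had 9.77, 10.06 and 9.51. INSR, the insulin receptor, was not above background on the knockdown arrays and was at least 1.06-fold lower there. The rule for naming these 4 genes asked for both knockdown arrays on the same side of the control, and limma gave each an adjusted p of 0.99991.

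Transcripts that IGF2BP proteins are known to bind had a median of -0.02 over the 9 above background. With both siRNAs 3 were higher and 3 lower (31.9% and 27.2% of all genes), and LIN28B, described above, was among the lower. CTNNB1, beta-catenin, stood apart from the rest with signals of 8.05 with siRNA 1, 9.30 with siRNA 2 and 10.11 in the control. Its mean difference was -1.44 ± 0.46 (SE, n = 2 against 1; limma adjusted p = 0.99991), and a second probe above background on all arrays gave -1.45. Of its other probes, 1 was above background on 1 array and gave -0.69, and 4 were above background on none; the mean over all 7 was -0.48. CDH1, the adhesion protein E-cadherin, was at a mean of 0.48, RGS4, a G protein regulator, at -0.32, and MYC at 0.43, of which siRNA 1 gave 0.76 and siRNA 2 0.10. The second MYC probe gave 0.35 and -0.0064, and ACTB, added after its value was seen, was at 0.07. Each of the 9 genes had a limma adjusted p of 0.99991.

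A list of 16 E2F, pocket protein, TFDP and LIN genes, all above background, had a median of -0.02. With both siRNAs, 1 was higher, LIN52, and 6 were lower, LIN37 among them, so no E2F or pocket protein gene was higher with both. Of all genes, 31.9% were higher and 27.2% lower with both. RBL1, the pocket protein p107 that E2F5 can bind, had signals of 7.67 with siRNA 1, 7.19 with siRNA 2 and 8.21 in the control, a mean of -0.78 ± 0.29 (SE; limma adjusted p = 0.99991). RB1, the retinoblastoma protein, was at -0.38, and the atypical repressors E2F8 and E2F7 were at -0.39 and -0.38. E2F7 owed this to the siRNA 2 array, at -0.74 beside -0.02 with siRNA 1. Relatives of ARID3B and HMGA2 had a median of 0.06 over 9 genes, with 3 higher and 2 lower with both. Besides HMGA1, these named genes were ARID4B at -0.25, ARID5B at -0.23 and HMGB2 at 0.15, whose second probe gave -0.08. The 2 other ARID4B probes above background gave -0.53 and -0.72 with siRNA 1, but -0.03 and 0.09 with siRNA 2. ARID5B owed its mean to the siRNA 2 array, at -0.44 beside -0.0067 with siRNA 1. All 5 TRIM relatives of TRIM71 were above background, with a median of 0.05. TRIM45 was at 0.17, from 0.33 with siRNA 2 and 0.0071 with siRNA 1. Every gene of these 3 lists had a limma adjusted p of 0.99991.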

How the data were processed

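The authors deposited a non-normalized table of signal intensity and a detection p-value per probe, a table of normalized intensity, and a table of a log fold change (its base is not stated and was taken as log2) with a 0 or 1 class per accession, per the file headers. The submitters' processing notes name the tool lumi; its version is not given in the sources used here. Signals were corrected and quantile normalized by neqc (limma 3.58.1, in R 4.3.3) at an offset of 16 and the background taken from the detection p-values. The platform annotation named the probes (30113 with 1 symbol, 8 with several, 17202 not listed). A gene took its brightest probe and was kept if 1 or more arrays had a detection p under 0.01. Because the offset is small, differences of dim probes widen, and quantile normalization hides a shift of most transcripts.

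limma (lmFit and eBayes, two-sided, Benjamini-Hochberg over 11768 genes) compared 2 knockdown arrays with 1 control array, with 1 residual and 6.78 prior degrees of freedom, so each SE rests mostly on the variance over all genes and holds no spread between control arrays. The fit treats the 2 knockdown arrays as replicates, although each had a different siRNA. P-values set a difference against this SE, in which the spread between a gene's own 2 knockdown arrays has a small part. That spread may be technical or may come from the siRNAs, and these cannot be told apart. A bound ("at least N-fold") sets the bright mean against the higher of the probe's own signal and the dimmest signal among detected probes, per array. It describes the signals and makes no allowance for noise. Named are the members, TARBP2, detected let-7 loci and hosts, and up to 4 genes per list with the largest mean difference on 1 side with both siRNAs. Named outside this rule were the cell type markers, E2F6, IGDCC3, ACTB, IGFBP3, IGFBP4, IGFBP5, IGFBP6, LIN52 and LIN37. The members and lists were chosen with earlier results of these data known. Some genes stand in more than 1 list, among them MYC, HMGA1, E2F6, INSR, IRS2, AGO1, AGO4 and DICER1, so the lists are not separate sets.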

Additional observations from a re-analysis of the deposited data

How the results depend on the processing

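No paired analysis was possible because there was only 1 control array and the labels give no pairing. The count of genes past the test was 1 with equal array medians and 1 with a trend and robust variance prior, TARBP2 in both (limma adjusted p = 0.0382 and 0.00423), and 0 under the other 8 settings that give a test; leaving out a knockdown array leaves no test. With equal array medians, members past 1.5-fold with siRNA 1 numbered 1 (E2F5), and the medians were 0.20 for the members and 0.11 for the let-7 target list, beside a shift of 0.12 over all genes. At the lower fold limit (0.322 on the log2 scale), 2 members were counted with siRNA 1 and 3 with siRNA 2, where 15.8% and 30.7% of all genes were. With a detection p under 0.05, chosen after seeing the data, the members' median was 0.028, since HMGA2 entered. The mean differences of E2F5, HUWE1 and WDR82 were 0.081, 0.10 and 0.12 with equal array medians, on the other side of 0 by less than the shift of all genes. Leaving out a knockdown array gave ARID3B -0.18 to 0.35, E2F5 -0.45 to 0.39, HUWE1 -0.074 to 0.033, MIR99AHG -0.27 to 0.44 and WDR82 -0.16 to 0.14. It gave medians of 0.05 to 0.12 for the members and -0.05 to 0.04 for the let-7 target list. The causes were not tested. Signal over background limits what can be said of LIN28A, HMGA2 and TRIM71.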
